A study of Mus musculus with 16 samples.

Results

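Small RNA libraries from plasma extracellular vesicles (pEVs) of PS19 and wild-type (WT) mice held reads of 54 annotated tRNA entries for glycine and glutamate. These entries, 32 for glycine (tRNA-Gly) and 22 for glutamate (tRNA-Glu), are described here. All had reads in both genotypes except tRNA-Gly-ACC-2-1, which had none in WT. They were taken by name, as every tRNA-Gly and tRNA-Glu entry of the non-coding RNA (ncRNA) table, which makes 54 of 433 tRNA entries and of 15159 ncRNAs with at least 1 read. A name gives the amino acid, the anticodon, the number of the isodecoder and the number of the gene copy, so that tRNA-Gly-GCC-2-2 is copy 2 of isodecoder 2 with the anticodon GCC. The study sequenced small ncRNAs of pEVs from 8 PS19 mice and 8 WT littermates, with 1 library per mouse, an equal number of males and females in each genotype and an age of about 9.6 months. PS19 mice were heterozygous (PS19+/-) on a mixed C57BL/6 and C3H background and express human tau (MAPT) with the P301S change under the mouse prion protein promoter (Prnp), in addition to the mouse's own tau gene. No group received a treatment. The pEVs came from 200 µL plasma of blood drawn from the heart into EDTA and were isolated by precipitation, which collects vesicles of every cell type that releases them into blood, with some plasma protein and lipoprotein. From the reads alone, fewer vesicles and less RNA per vesicle cannot be told apart. The same holds for RNA inside vesicles and RNA collected with plasma protein.

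A transfer RNA brings 1 amino acid to the ribosome and reads its codon through the anticodon. Isoacceptors are tRNAs for the same amino acid with different anticodons, and isodecoders share an anticodon but differ elsewhere in the sequence. tRNAs are also cut at the anticodon loop, by angiogenin among other nucleases, and the 5′ fragments of tRNA-Gly and tRNA-Glu are among the most abundant small RNAs of blood plasma, where they are found in vesicles and in protein complexes. The measurement here counts any read assigned to an annotated tRNA, so that whole tRNAs and fragments are not told apart.

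RefSeq lists 48 mouse tRNA-Gly and tRNA-Glu genes on GRCm38.p6, the assembly behind mm10, and they are 71 to 74 bases long. Gene length thus differs little among them, but the lengths of the reads assigned to each tRNA were not examined. Of these 48 genes, 14 have the anticodon GCC, 6 CCC, 7 TCC and 1 ACC for glycine, and 12 have CTC and 8 TTC for glutamate. Of the 48 genes, 13 lie within chr1:171037997-171103114, namely 4 Gly-GCC, 5 Gly-TCC and 4 Glu-CTC genes. Genes of other families in this interval were not listed. RefSeq and the deposited table name their genes by different schemes, and the positions are given for the family and not for single entries.

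Summed over rows, the libraries held 36220722 to 117583663 assigned reads, or 31153639 to 96831631 when each set of identical rows was counted once. Each such set was counted once for every share below unless stated. A read can enter several near-identical rows, so these sums are not numbers of separate reads. WT replicate 2 had the lowest sum, at 45.5% of the median with identical rows counted once. These sums also rise with the share of tRNA-Gly and tRNA-Glu reads, which was lowest in this library. The authors divided the counts by size factors, of which PS19 replicate 4 had the smallest, 0.261, and WT replicate 5 the largest, 2.57, and a read of PS19 replicate 4 therefore weighed most. One initial letter is common to the names of all PS19 libraries, and 2 of the WT libraries, replicates 2 and 4, have it too, the rest of WT having others. What the letter stands for is not given in the sources used here. The labelled source was checked with miRNAs typical of blood and tissues, all of which had reads, and the median over libraries of the summed markers was 33012 normalized counts in PS19 and 38497 in WT for 6 markers of red blood cells, 27570 and 105776 for 3 of liver, 2703 and 3442 for 3 of neurons, 1350 and 1902 for 2 of endothelium and 276 and 217 for 4 of platelets and myeloid cells. The part of these sources in the values below was not tested.

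tRNA-Gly and tRNA-Glu together took most of the reads assigned in the pEV libraries, although each of them varied widely among mice. With 1 row per identical set, a counting in which the same read can enter several near-identical rows, they held 98.4% ± 0.853 (SD) of assigned reads in PS19 against 97.2% ± 3.29 (SD) in WT (n = 8 each), and the values of PS19 (97.1% to 99.5%) and WT (89.5% to 99.1%) overlapped. WT replicate 2 had the lowest share, 89.5%, and also the highest miRNA share, 8.73%. tRNA-Gly alone held 51.0% ± 14.5 (SD) in PS19 against 48.8% ± 5.30 (SD) in WT (n = 8 each), and tRNA-Glu held 47.4% ± 14.1 (SD, n = 8) and 48.4% ± 8.20 (SD, n = 8), respectively. Both ranges of PS19 were wide: tRNA-Gly ran from 25.7% to 72.3% with a median of 53.6%, against 40.1% to 58.6% with a median of 48.4% in WT, and the genotypes overlapped. All other tRNAs together held 0.359% ± 0.270 (SD) in PS19 against 0.228% ± 0.118 (SD) in WT (n = 8 each), of which tRNA-His, another tRNA known as fragments in blood, held a median of 0.147% in PS19 and 0.0756% in WT, tRNA-Val 0.000297% and 0.000252% and tRNA-Lys 0.00119% and 0.000905%. These shares of other tRNAs rise when member reads are counted once, as given below.

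The 54 entries are not 54 measurements, since many entries held the same reads. Rows with identical values in all 16 libraries left 43 distinct profiles, and entries whose reads differed by at most 2% in every library formed 22 groups, a limit chosen after the values were seen. At low counts a few reads exceed 2%: Gly-TCC-1-1 had the same reads as Gly-TCC-1-2 in 14 of 16 libraries, and as Gly-TCC-1-7 in 14, yet each heads its own group. The 22 groups are therefore not all separate measurements. The largest group held 11 entries that differed by at most 0.0553%: all 8 copies of Gly-GCC-2, Gly-GCC-3-1, Gly-GCC-4-1 and, with another anticodon, Gly-CCC-5-1. The other large groups were the 9 copies of Glu-CTC-1, which differed by at most 0.00129%, and the 4 copies of Glu-TTC-1, which differed by at most 0.1001%. The share of Gly-CCC, 5.03% in PS19 and 4.83% in WT, therefore rested on Gly-CCC-5-1, whose reads were nearly those of the Gly-GCC-2 copies, and the next group, Gly-CCC-2, had 0.151% of the reads of Gly-GCC-2-2 (median over 16 libraries). For a member group, the entry with the most reads is named from here on. All 54 entries had reads, and 53 exceeded the floor of 3 reads in at least 1 library, the exception being Gly-ACC-2-1, with 2 reads in all, both in PS19.

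With each of these 22 groups counted once, a single group of each amino acid held most reads of that amino acid. The Glu-CTC-1 group held 46.1% ± 11.7 (SD) of reads in PS19 against 46.1% ± 12.5 (SD) in WT (n = 8 each), and the Gly-GCC-2 group held 35.4% ± 11.8 (SD, n = 8) and 31.6% ± 3.33 (SD, n = 8). Gly-GCC-1 followed with 5.51% ± 2.17 (SD) in PS19 against 4.18% ± 0.569 (SD) in WT (n = 8 each), and all Glu-TTC entries together held 1.07% ± 0.295 (SD, n = 8) and 1.498% ± 0.575 (SD, n = 8). The Glu-CTC-1 and Gly-GCC-2 groups together had 86.8% to 94.7% of the reads of all members, with a median of 92.5%. Counting the groups once lowered the share of all members, to 88.9% in PS19 (80.9% to 95.9%) and 84.1% in WT (52.1% to 93.3%), because fewer tRNA rows entered the total. All other tRNAs then held 2.47% ± 1.71 (SD) in PS19 against 1.58% ± 0.894 (SD) in WT (n = 8 each), and tRNA-His a mean of 1.35% and 0.689% (medians 1.06% and 0.522%). In this counting the exact 95% binomial interval of the share of either amino acid was at most 0.0346 percentage points to each side in any library, which covers counting error only. WT replicate 2 was again the lowest library, and its miRNA share became 39.7%.

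**Figure D1:**
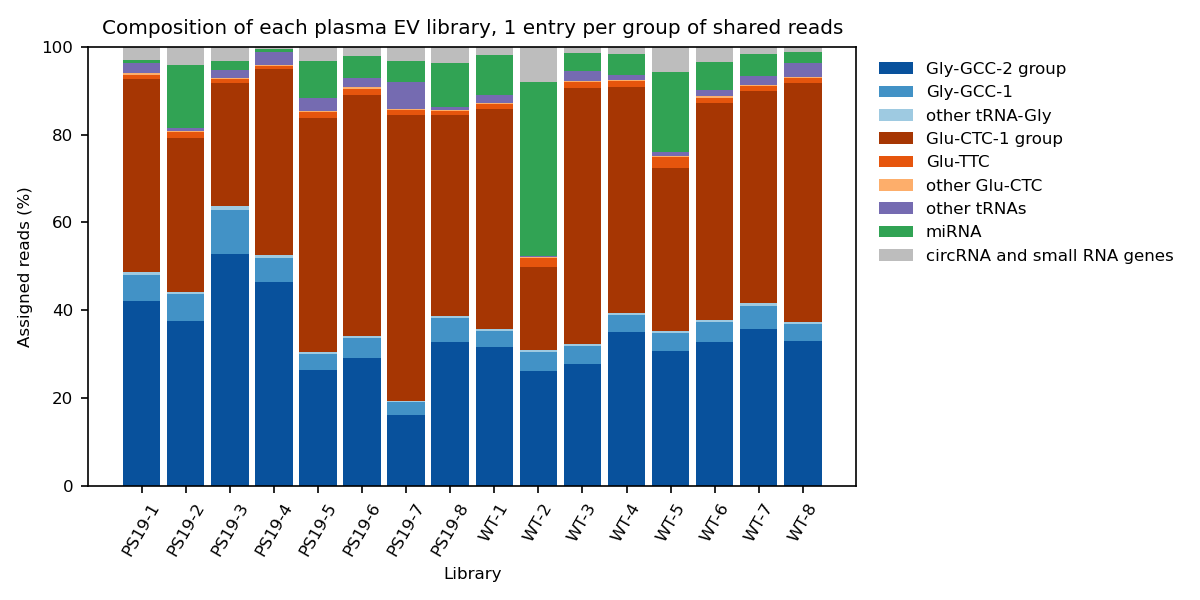
Each bar is 1 library (PS19 and WT replicates on the x axis) and its height is the percentage of assigned reads on the y axis, with 1 entry counted per group of tRNA-Gly and tRNA-Glu entries that share reads. The Gly-GCC-2 and Glu-CTC-1 groups are the largest parts of the bars except in WT replicate 2, where the miRNA part, 39.7%, is larger than either.

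Among the glycine entries, the group of Gly-GCC-2 with Gly-CCC-5-1 had by far the most reads, and its assignment to GCC follows the name of its highest entry. Gly-GCC-2-2 had 4803397 ± 4711819 (SD) normalized counts in PS19 against 3567075 ± 1970609 (SD) in WT (n = 8 each). Its values lay between 1193319 and 15745917, with a median of 2893872, in PS19 and between 737237 and 6260964, with a median of 3970896, in WT. PS19 replicate 4 alone lay above every WT library and WT replicate 2 alone below every PS19 library, and all other libraries of the genotypes overlapped. Gly-GCC-1-1, the second isodecoder by level, ran from 213733 to 1861105, median 456823, normalized counts in PS19 and from 120944 to 723631, median 508401, in WT. It stayed in a narrow band below Gly-GCC-2-2, at a median of 14.6% of its reads (15.9% in PS19 and 13.5% in WT; 10.9% to 19.2% over the 16 libraries), and the genotypes overlapped. Gly-GCC-5-1 had 0.931% of the reads of Gly-GCC-2-2 (0.814% to 1.18%) and Gly-GCC-6-1 had 0.431% (0.310% to 0.833%).

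The glycine entries with other anticodons, apart from Gly-CCC-5-1, were far below this group. Gly-CCC-2-2 had 7316 ± 7211 (SD) normalized counts in PS19 against 5260.1 ± 3325 (SD) in WT (n = 8 each). Gly-CCC-3-1 stood at 0.0852% of Gly-GCC-2-2, and Gly-CCC-1-1 had only 293 reads over all libraries, with 0.919 to 107, median 9.25, normalized counts in PS19 and 10.4 to 30.7, median 14.1, in WT. The highest of these values was that of PS19 replicate 4, where the next PS19 library had 25.04. The 8 Gly-TCC entries had 123 to 198 reads each over the 16 libraries, where Gly-TCC has 7 RefSeq genes, 5 of them in the chr1 interval with Gly-GCC and Glu-CTC genes. Gly-TCC-1-2 ran from 2.15 to 29.2, median 11.4, normalized counts in PS19 and from 2.32 to 24.7, median 7.87, in WT, where 3 reads correspond to 4.01 and 2.85 normalized counts on average. Some of these values were at or under that floor. The fitted difference of Gly-TCC-1-2 (log2 fold change 0.40, SE 0.591, limma raw p = 0.504, exact permutation p = 0.498) had a 95% interval of 0.569 to 3.06 fold.

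Among the glutamate isoacceptors, Glu-CTC stood far above Glu-TTC. Glu-CTC-1-7 had 5538804 ± 3857878 (SD) normalized counts in PS19 against 5564771 ± 3371689 (SD) in WT (n = 8 each). Its values lay between 2168380.2 and 14389249, with a median of 4555828, in PS19 and between 537003 and 10322685, with a median of 6767611, in WT. PS19 replicate 4 was the highest library and WT replicate 2 the lowest, as for Gly-GCC-2-2. Of the minor Glu-CTC isodecoders, 3 varied little relative to Glu-CTC-1-7: Glu-CTC-2-1 had 0.259% to 0.389% of its reads, Glu-CTC-5-1 0.122% to 0.204% and Glu-CTC-4-1 0.103% to 0.176%. Glu-CTC-6-1 and Glu-CTC-3-1 were rare, with 5572 and 390 reads over all libraries, and varied more, by 3.10 and 19.1 times between the lowest and the highest proportion (0.00376% to 0.0116% and 9.64e-05% to 0.00184%). Of the Glu-TTC isodecoders, Glu-TTC-1-3 had 65914 ± 30664 (SD) normalized counts in PS19 against 77568 ± 26652 (SD) in WT (n = 8 each), Glu-TTC-2-2 had 28826 ± 15859 (SD, n = 8) and 35397 ± 14024 (SD, n = 8), and Glu-TTC-3-1 had 25323 ± 16811 (SD, n = 8) and 29971 ± 18599.7 (SD, n = 8). The order of the isodecoders is a description. Within a library the neighbours in this order, from Glu-CTC-1-7 down to Glu-CTC-3-1, kept it in 16 of 16 libraries, except that Glu-TTC-2-2 exceeded Glu-TTC-3-1 in only 9.

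**Figure D2:**
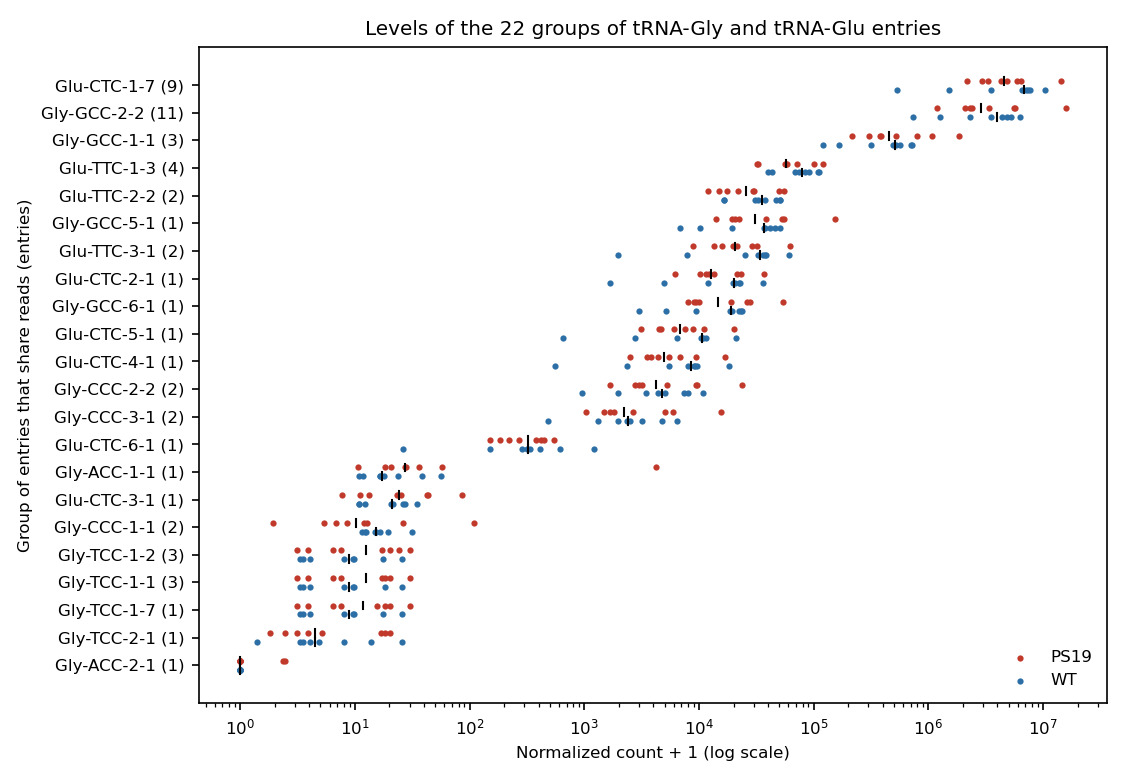
Points are the normalized count + 1 of each library (x axis, log scale) for the entry with the most reads of each group of entries that share reads (y axis, number of entries in brackets), coloured by genotype with 8 libraries each, and the black ticks are the medians. The groups run from Glu-CTC-1-7 and Gly-GCC-2-2 at the top to Gly-ACC-2-1 with 2 reads, and PS19 and WT points overlap in every row.

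The comparison of PS19 with WT asks whether the circulating tRNA-Gly and tRNA-Glu pool differs with tauopathy, and none of the members passed the study's threshold in it. With limma on log2(normalized count + 1) over all 15159 ncRNAs, 0 of the 43 distinct profiles reached a raw p under 0.05, and by the exact permutation test 0 did so. Over all ncRNAs, 735 passed this threshold, or 4.85% (2.72% higher and 2.13% lower in PS19), and 0 passed it after Benjamini-Hochberg adjustment, with a smallest limma adjusted p of 0.829. DESeq2 on the recovered reads also called 0 of 43, where 5.42% of all ncRNAs passed (3.83% higher and 1.59% lower), and edgeR's quasi-likelihood test called 1, described below, where 15.1% did (7.88% higher and 7.26% lower). The smallest limma raw p among the members was 0.128, for Gly-ACC-2-1 with its 2 reads, and the smallest exact permutation p was 0.249. The ranges of the genotypes overlapped for every member, and they did so for all 15159 ncRNAs (0.0% without overlap).

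The intervals of the fold changes were wide, so that sizeable differences in either direction remained possible. Gly-GCC-2-2 gave log2 fold change 0.27, SE 0.638, limma raw p = 0.673, exact permutation p = 0.635, with a 95% interval of 0.487 to 2.997 fold on the (normalized count + 1) scale. Glu-CTC-1-7 gave log2 fold change 0.21, SE 0.662, limma raw p = 0.755, exact permutation p = 0.745, with an interval of 0.450 to 2.96 fold. For both entries the median was lower in PS19 than in WT, while the mean of the log2 values was higher. Gly-GCC-1-1 had the largest fitted value of the abundant entries (log2 fold change 0.51, SE 0.573, limma raw p = 0.385, exact permutation p = 0.326), with an interval of 0.628 to 3.21 fold. Of the Glu-TTC entries, Glu-TTC-1-3 was fitted lower (log2 fold change -0.29, SE 0.463, limma raw p = 0.543, exact permutation p = 0.367) and Glu-TTC-2-2 likewise (log2 fold change -0.36, SE 0.473, limma raw p = 0.448, exact permutation p = 0.332), whereas Glu-TTC-3-1 lay near 0 (log2 fold change 0.03, SE 0.611, limma raw p = 0.964, exact permutation p = 0.968). Gly-GCC-5-1 (log2 fold change 0.45, SE 0.562, limma raw p = 0.428, exact permutation p = 0.430) and Gly-GCC-6-1 (log2 fold change 0.38, SE 0.546, limma raw p = 0.496, exact permutation p = 0.487) were likewise short of the threshold. Of the rare entries, Gly-CCC-1-1 was fitted lower (log2 fold change -0.50, SE 0.608, limma raw p = 0.419, exact permutation p = 0.459; -0.97 without PS19 replicate 4), and Glu-CTC-3-1 (log2 fold change 0.34, SE 0.520, limma raw p = 0.524, exact permutation p = 0.485) and Gly-TCC-2-1 (log2 fold change 0.11, SE 0.651, limma raw p = 0.862, exact permutation p = 0.865) higher.

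By anticodon, all 12 distinct Gly-GCC profiles, 5 of 6 Gly-CCC, all 4 Gly-TCC, both Gly-ACC and all 12 Glu-CTC profiles were fitted higher in PS19, and 6 of 7 Glu-TTC profiles lower, none of them past the threshold. The median log2 fold change was 0.29 over tRNA-Gly, 0.10 over tRNA-Glu (0.21 for Glu-CTC and -0.29 for Glu-TTC) and 0.27 over both, against -0.01 over all ncRNAs. Since entries share reads and libraries, these counts are not independent, and the direction depended on the scaling and on single libraries. Fitted higher were 36 of 43 profiles with the authors' size factors, 23 with library totals, 13 with TMM factors and 43 with factors from miRNAs, and the median log2 fold change of the members was 0.27, 0.01, -0.01 and 0.86, where that of all ncRNAs was -0.01, -0.11, -0.08 and 0.18, respectively. Without PS19 replicate 4, 12 of 43 were fitted higher, and without WT replicate 2, 13. The other tRNAs, with 245 distinct profiles, had 17 past the raw threshold and a median log2 fold change of 0.56, with 1 of 20 tRNA-Lys, 0 of 17 tRNA-Val and 0 of 4 tRNA-His profiles called. The other calls were 6 of 11 tRNA-Ile, 3 of 30 tRNA-Ala, 2 of 30 tRNA-Cys, 2 of 15 tRNA-Gln, 2 of 3 tRNA-iMet and 1 of 17 tRNA-Arg profiles. Whether members differ from the other tRNAs was not tested.

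**Figure D3:**
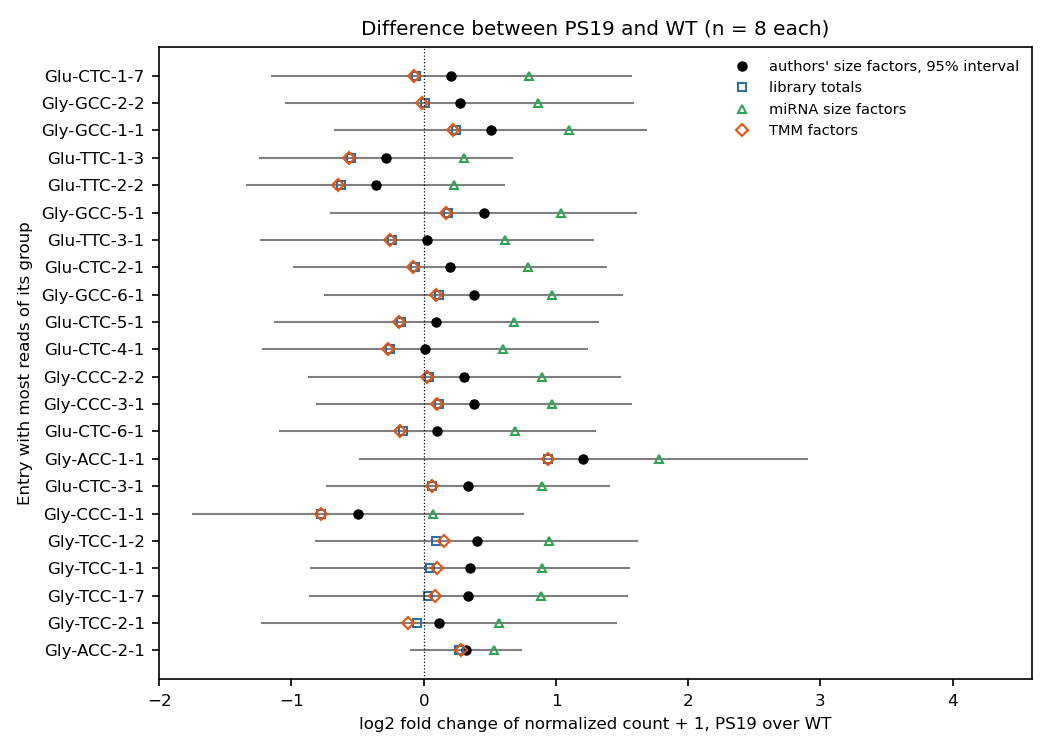
The x axis is the log2 fold change of the normalized count + 1, PS19 over WT, and the y axis lists the entry with the most reads of each group. Filled points with 95% intervals of the limma fit use the authors' size factors (8 libraries per genotype), and open symbols show the same fit with library totals, miRNA size factors or TMM factors. All 22 intervals cross 0, and the fitted value of Glu-CTC-1-7 lies above 0 with the authors' and the miRNA factors and below it with the other 2.

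PS19 replicate 4 and WT replicate 2 set the ends of most of these ranges. In normalized counts, PS19 replicate 4 was the highest library for 14 of the 22 groups and WT replicate 2 the lowest for 13. With each group counted once, PS19 replicate 4 had 42.4% of its reads in the Glu-CTC-1 group and 46.4% in the Gly-GCC-2 group. The PS19 medians were 44.9% and 35.2%, and the highest PS19 values 65.2% and 52.8%. PS19 replicate 4 had the smallest size factor, 0.261, the smallest miRNA share, 0.0767%, and the lowest sum of the 6 red blood cell markers, 1952 normalized counts, whereas WT replicate 2 had the largest sum of these. Their part in the fitted directions is seen in the fits without them, given above.

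The ratio of tRNA-Gly to tRNA-Glu within a library does not depend on how libraries are scaled, and its difference between genotypes was smaller than the spread of mice. The log2 ratio of Gly-GCC-2-2 to Glu-CTC-1-7 reads was -0.42 ± 0.898 (SD) in PS19 against -0.48 ± 0.446 (SD) in WT (n = 8 each), a difference of 0.06 (two-sided exact permutation test, p = 0.862). On the linear scale the ratio ran from 0.247 in replicate 7 to 1.88 in replicate 3 of PS19, with a median of 0.837, and from 0.475 in replicate 3 to 1.37 in replicate 2 of WT, with a median of 0.671. The PS19 libraries lay on both sides of WT: Glu-CTC-1-7 exceeded Gly-GCC-2-2 in 5 of 8 PS19 and 7 of 8 WT libraries. The SD of the log2 ratio was 0.510 in PS19 without replicates 3 and 7 (n = 6) and 0.252 in WT without replicate 2 (n = 7), and the difference in spread was not tested. With the PS19 libraries against the 2 WT libraries that share their letter, the difference was -0.37 (exact permutation test, p = 0.667). Those are WT replicate 2, the highest of WT in this ratio (log2 0.457), and WT replicate 4 (log2 -0.555).

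**Figure D4:**
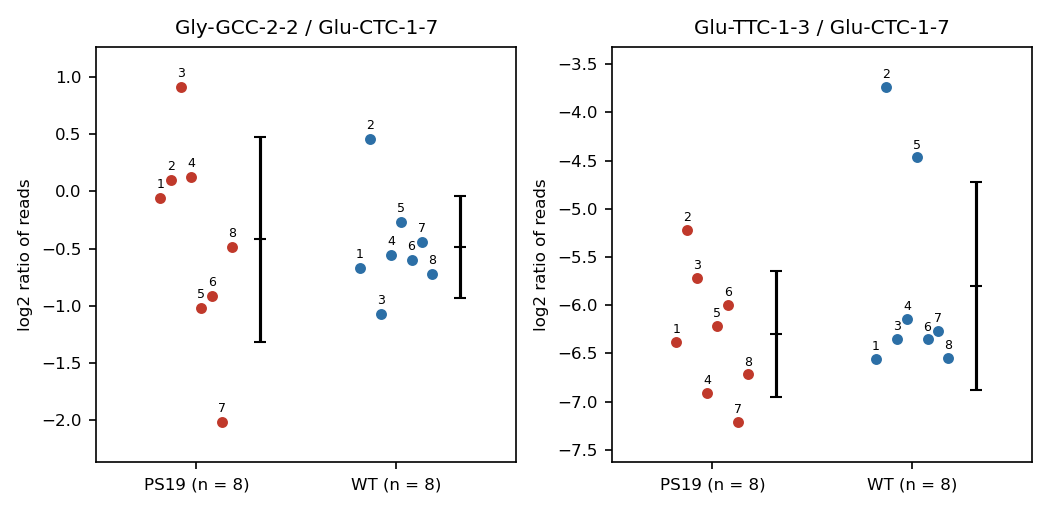
Points are the log2 ratio of reads within 1 library (y axis) for PS19 and WT (x axis, 8 libraries each, numbered by replicate), with Gly-GCC-2-2 over Glu-CTC-1-7 in the left panel and Glu-TTC-1-3 over Glu-CTC-1-7 in the right. The bar beside each group is the mean ± SD. On the left PS19 spans -2.02 to 0.91 and WT -1.08 to 0.46, and on the right WT replicates 2 and 5 and PS19 replicate 2 are the highest.

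Glu-TTC-1 was high relative to Glu-CTC in 3 libraries, of both genotypes, Glu-TTC-2 in 2 of these, and Glu-TTC-3 in none. This ratio was chosen after the values were seen and was given no test. Glu-TTC-1-3 had 0.674% to 1.90% of the reads of Glu-CTC-1-7 in 13 libraries, but 7.49% in WT replicate 2, 4.52% in WT replicate 5 and 2.68% in PS19 replicate 2. Glu-TTC-2-2 stood at 3.08% in WT replicate 2 and 2.18% in WT replicate 5 but at 0.687% in PS19 replicate 2, and at 0.359% to 0.775% in the other 13 libraries. Glu-TTC-3-1 stayed at 0.367% to 0.710% in all 16. The same 3 libraries had the highest miRNA shares, 8.73% in WT replicate 2, 3.03% in WT replicate 5 and 2.21% in PS19 replicate 2, against 0.0767% to 1.47% in the others. Among those others the orders differed: PS19 replicate 8 ranked 4 by miRNA share and 14 by this ratio, and PS19 replicate 3 ranked 14 and 4. Glu-CTC-1 reads also enter both measures, as the divisor of the ratio and in the total under the miRNA share. The part of the miRNA share in this ratio was not tested. Its log2 mean was -6.30 ± 0.654 (SD) in PS19 against -5.80 ± 1.08 (SD) in WT (n = 8 each), and the ranges overlapped. The difference of -0.49 between these means became -0.20 without WT replicate 2 and -0.30 without WT replicate 5, and -1.36 with only the 2 WT libraries that share the PS19 letter. Those are WT replicate 2, the highest library in this ratio (log2 -3.74), and WT replicate 4 (log2 -6.14).

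**Figure D5:**
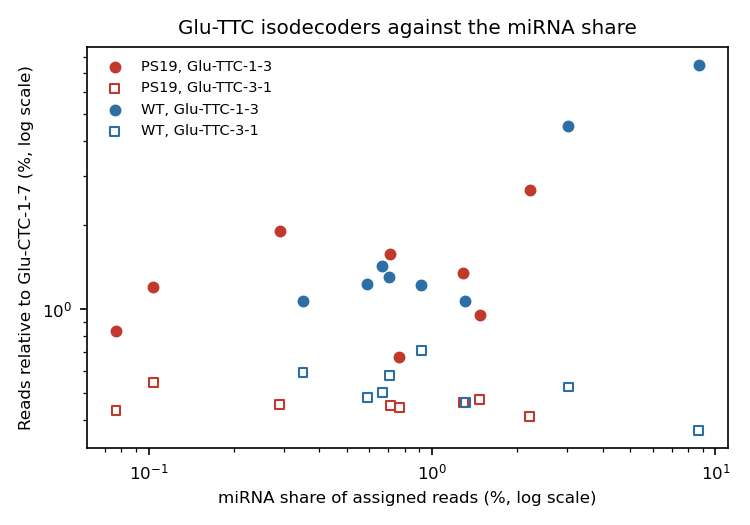
The x axis is the miRNA share of assigned reads and the y axis the reads relative to Glu-CTC-1-7, both in percent on log scales, with 1 point per library for each of Glu-TTC-1-3 (filled) and Glu-TTC-3-1 (open squares), coloured by genotype. Glu-TTC-1-3 is highest in the 3 libraries with the highest miRNA share, at 2.68% to 7.49%, and Glu-TTC-3-1 stays between 0.367% and 0.710%.

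Gly-ACC-1-1 was the only member that edgeR called, and a single library carried it. It had 1525 reads over all libraries, of which 1097 came from PS19 replicate 4, with 7 to 68 reads in the other PS19 libraries and 11 to 40 in WT. PS19 replicate 4 reached 4207 normalized counts, against at most 56.8 in the other 7 PS19 libraries and at most 55.6 in WT, so that without it the genotypes covered similar ranges. edgeR's quasi-likelihood test gave a log2 fold change of 3.60 (raw p = 1.98e-06), limma 1.21 (SE 0.823, raw p = 0.154, exact permutation p = 0.249), and limma without PS19 replicate 4 0.28 (raw p = 0.557). The same library had the highest share of tRNA-Val, 0.0125%, and of tRNA-Lys, 0.00573%, where the other 15 libraries had at most 0.00105% and 0.00209%. Of the marker lists, its red blood cell sum was the lowest of 16 and its platelet and myeloid sum of 119 normalized counts and endothelium sum of 724.8 were the second lowest, while its liver sum of 48527 ranked 9 from the lowest and its neuron sum of 10017 was the second highest. The part of cell origin in the Gly-ACC-1-1 reads was not tested.

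The ncRNAs whose pattern over the 16 libraries was most like that of the leading entries were circRNAs and another tRNA. Likeness was taken as Pearson's r on log2(normalized count + 1) among 2331 profiles outside the family whose mean was 10 normalized counts or more, and is a description, since all profiles share the libraries and their size factors. For Gly-GCC-2-2 these were mmu_circ_0014805 (r = 0.986), mmu_circ_0008923 (r = 0.933) and mmu_circ_0002920 (r = 0.914). The first stayed at 0.00204% to 0.00338% of the reads of Gly-GCC-2-2 in all libraries. For Glu-CTC-1-7 they were tRNA-Ala-CGC-5-1 (r = 0.955), mmu_circ_0014353 (r = 0.946) and mmu_circ_0010621 (r = 0.944). Between Gly-GCC-2-2 and Glu-CTC-1-7 themselves r was 0.816. Whether these circRNA entries share reads with tRNAs was not tested.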

How the data were processed

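Small ncRNA libraries from pEVs of 16 mice (8 PS19 and 8 WT, grouped by the genotype in the labels) were used. The authors aligned the reads to mm10 with STAR 2.5.3a, assigned them to ncRNAs with COMPSRA and analysed them with DESeq2 1.42.1. How reads that match several tRNA genes were assigned is not given in the sources used here. The signal values deposited for each library are counts divided by its DESeq2 size factor, and a further signal column is the authors' mean of these values. The log2 fold changes and standard errors, the score (Wald statistic) and each p-value deposited by the authors belong to their own comparison and were not used.

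Whole reads were recovered by dividing by the smallest positive value of each library, and 100% of values were whole within 1e-06 of a read. The main test was limma (lmFit, and eBayes with its trend option), two-sided, on the log2 of the normalized count with a pseudocount of 1. It was fitted on the 15159 ncRNAs that had any read, with a threshold of 0.05 on the raw p and Benjamini-Hochberg adjusted p-values over the whole table. Exact permutation tests compared 8 with 8 libraries, with a smallest possible p of 0.000155. The members and lists were chosen with earlier results of these data known. Entries given by name are the highest and lowest of each anticodon, the 5 distinct profiles with the smallest limma p of each amino acid, and the ncRNAs most like the leading entries. Heads of groups of entries that share reads were named after the values were seen. Same-numbered replicates are different mice. The binomial intervals of shares and the floor of 3 reads cover counting error only, whereas the intervals of fold changes come from the limma SE and cover the spread between mice.

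On simulated data for PS19 against WT with 14339 ncRNAs, a log2 change of 2 was given to 200 that had a mean of at least 10 normalized counts. Of these, limma found 70.5%, edgeR 76% and DESeq2 83% at the raw threshold. Of the unchanged ones, 4.74%, 8.23% and 3.46% passed, respectively. Alternatives were DESeq2 and edgeR on the recovered reads, other scalings, a mean of at least 10, a pseudocount of 0.1, 1 row per identical set, 1 entry per group of shared reads (chosen after seeing the data), a replicate block, each library left out, a minimum total of 50% of the median, and libraries of the same name letter. Versions were limma 3.58.1, DESeq2 1.42.0 and edgeR 4.0.16 in R 4.3.3, and scipy 1.17.1, pandas 2.3.3 and numpy 2.4.6 in Python 3.11.15.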

Additional observations from a re-analysis of the deposited data

Results flagged for a closer look

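Of 44 groups of 8 values examined for a library far from the rest, a check that chance alone passes in about 1 in 20 groups, 1 stood out. The log2(normalized count + 1) of tRNA-Gly-ACC-1-1 was 12.04 in PS19 replicate 4, and the nearest PS19 library had 5.85, a gap of 0.716 of the whole range, above the 95% critical value for 8 samples.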

How the results depend on the processing

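No distinct profile had a raw p under 0.05 in any limma or DESeq2 alternative, and edgeR called 1. Fitted directions changed as follows, and the cause was not tested. With library totals the log2 fold change was -0.057 for Glu-CTC-1-7, -0.24 for Glu-TTC-3-1 and -0.049 for Gly-TCC-2-1. With TMM factors it was -0.073, -0.25 and -0.12 for these, and -0.0092 for Gly-GCC-2-2 and -0.0091 for Gly-CCC-5-1. Only the scalings are given for Glu-CTC-2-1, Glu-CTC-4-1, Glu-CTC-5-1 and Glu-CTC-6-1, all fitted above 0 with the authors' size factors. In this order, their log2 fold change was -0.066, -0.26, -0.17 and -0.16 with library totals and -0.082, -0.27, -0.19 and -0.18 with TMM factors. With miRNA size factors it was 0.30 for Glu-TTC-1-1, Glu-TTC-1-2 and Glu-TTC-1-3, 0.23 for Glu-TTC-2-1 and Glu-TTC-2-2, and 0.073 for Gly-CCC-1-1. Without libraries under 50% of the median total, which leaves out WT replicate 2, it was -0.21 for Glu-CTC-1-7, -0.46 for Glu-TTC-3-1, -0.011 for Gly-GCC-2-2 and Gly-CCC-5-1, and -0.17 for Gly-TCC-2-1. DESeq2 gave -0.0067 for Glu-CTC-1-7, -0.24 for Glu-TTC-3-1 and 0.35 for Gly-CCC-1-1. edgeR gave -0.37 for Glu-CTC-1-7, -0.59 for Glu-TTC-3-1, -0.053 for Gly-GCC-2-2 and Gly-CCC-5-1, -0.053 for Gly-GCC-6-1, -0.13 for Gly-TCC-2-1 and 3.60 for Gly-ACC-1-1, the only call. With libraries of the same letter, 8 PS19 against 2 WT (replicates 2 and 4), the log2 fold change was 1.21 for Glu-CTC-1-7, 1.31 for Glu-TTC-3-1, 0.84 for Gly-GCC-2-2 and Gly-CCC-5-1, 1.06 for Gly-GCC-1-1, 0.99 for Gly-GCC-5-1, 0.97 for Gly-GCC-6-1 and -0.58 for Gly-TCC-1-2. None passed the limma raw threshold, and the log2 Gly-GCC to Glu-CTC ratio differed by -0.37. Of Glu-CTC-1-7, WT replicate 2 had 537003 normalized counts, the lowest of all libraries, and WT replicate 4 had 7671956.

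Leaving out 1 library at a time, 0 profiles were called throughout. The log2 fold change ranged from -0.21 to 0.40 for Glu-CTC-1-7, from -0.036 to 0.50 for Gly-GCC-2-2 and Gly-CCC-5-1, from -0.46 to 0.25 for Glu-TTC-3-1 and from -0.17 to 0.43 for Gly-TCC-2-1, and kept its sign for the entries given next. Its size moved by over 1.5 times in several of these, from -0.97 to -0.13 for Gly-CCC-1-1, from 0.082 to 0.52 for Gly-GCC-6-1, from 0.15 to 0.64 for Gly-GCC-5-1, from 0.25 to 0.70 for Gly-GCC-1-1, from 0.18 to 0.65 for Gly-TCC-1-2, from 0.073 to 0.57 for Glu-CTC-3-1, from 0.28 to 1.52 for Gly-ACC-1-1, from 0.18 to 0.36 for Gly-ACC-2-1, from -0.43 to -0.15 for the Glu-TTC-1 entries and from -0.52 to -0.21 for the Glu-TTC-2 entries. Such ranges were not taken for Glu-CTC-2-1, Glu-CTC-4-1, Glu-CTC-5-1, Glu-CTC-6-1, Gly-CCC-2-2 and Gly-CCC-3-1. The ratio difference ranged from -0.13 to 0.29 (exact permutation p = 0.335 to 0.977). The mean share of tRNA-Gly in WT was 36.3% with 1 entry per group of shared reads, against 48.8% as reported, and that of tRNA-Glu in WT 37.2% with the highest entry of each anticodon, against 48.4%. In PS19 the same countings gave 41.5% against 51.0% for tRNA-Gly and 37.1% against 47.4% for tRNA-Glu.

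Replicate numbers belong to different mice, and same-numbered libraries did not deviate together (correlations of -0.21 to 0.39; 1 of 8 libraries correlated best with its own number). The replicate block called 0 members, as did the fit without it. Gly-TCC and Gly-CCC-1-1 had 3 reads or fewer in some libraries, and Gly-ACC-2-1, with 2 reads in all, is limited by depth.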
